A study of Mus musculus with 6 samples.

Results

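The cytosolic and mitochondrial chaperones, their cochaperones and the heat shock factors described here are 45 mouse gene symbols, each read from the probe set annotated to that symbol alone, taking the brightest over the 6 arrays where there were several. That gave 41 genes among the 22180 measured in the series. Dnaja1 and Stub1 were found only on probe sets shared with another gene, and Hsf1 and Hsp90ab1 were not analysed here.

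Chaperones help other proteins fold, assemble or be handed on for degradation, and cochaperones steer their ATPase cycles and choose their clients. In the cytosol HSP70 binds exposed stretches of a client, J-domain (HSP40) proteins bring clients to it and nucleotide exchange factors release them, while HSP90 acts later on kinases and receptors and the chaperonin encloses actin, tubulin and other newly made proteins. A matching set of HSP70, HSP90 and chaperonin works inside mitochondria, and the heat shock factors Hsf1 and Hsf2 bind inverted repeats of the unit GAA in the promoters of many of these genes.

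Total RNA from the spleens of 1-year-old mice was hybridised to Affymetrix arrays, with 3 spleens in each of the DX2 and control groups. The DX2 mice were CAG-rtTA; TRE DX2/+, meaning that a doxycycline-dependent activator under the broadly active CAG promoter drove a DX2 transgene, DX2 being a shortened splice form of the tRNA synthetase scaffold AIMP2. Control littermates had the genotype 0; TRE DX2 /+, with the transgene but no activator, and both groups ate pellets with doxycycline (6.25 mg/kg) from 8 weeks of age. Effects of DX2 and of the activator protein therefore cannot be told apart, and the labels call the spleens biological replicates.

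All values are the authors' log2 expression values, all differences are DX2 minus control on that scale from limma over all 22180 genes, and adjusted p-values are Benjamini-Hochberg over the same genes. Values per array are given in the order of replicates 1, 2 and 3. As spleen markers, the B cell gene Ms4a1 read between 8.82 and 10.91 and the red pulp macrophage gene Spic between 8.76 and 9.67 on every array. Values of different probe sets cannot be set against each other, and the height of these values above background is not known. Of 9 measured B cell markers all were lower on every DX2 array than on any control and 3 passed the test (the largest adjusted p of these was 0.0491, for Fcer2a). Over all genes 11.2% were lower in that way and 0.316% passed. Because whole spleen was measured, fewer cells of a type and less RNA per cell cannot be told apart here or below. Sex also differed: Xist read 4.29, 4.12 and 4.02 in DX2 spleens, against 10.89, 10.54 and 3.89 in control spleens, so only control 3 had the male pattern that all DX2 spleens had.

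Most chaperone transcripts were somewhat higher in DX2 than in control spleens, and none passed the test. Of the 41 genes, 36 had a positive difference, where 51.6% of all genes did, and their median difference was 0.23 against 0.01 over all genes. The 3 DX2 arrays all lay above the 3 control arrays for 21 of the 41 (51.2%), where 10.7% of all genes did so, and all below them for 2, Dnajc5 and Dnajc7, where 11.2% of all genes did so. Most members were brighter than the median gene (38 of 41). Without the 40% dimmest genes 20 of the 40 members kept were separate upward, where 14.3% of the genes kept were. At an unadjusted p of 0.05 in limma 16 were higher (8.13% of all genes) and 1 was lower (7.82% of all genes). After adjustment 0 of 41 passed 0.05, where 0.316% of all genes passed, and the smallest adjusted p among the members were 0.0638 for Stip1 and 0.0683 for Hsph1. The differences run from -0.30 for Dnajc7 to 1.07 for Hsph1, and no member reached the differences of the stress-induced HSP70 genes Hspa1a and Hspa1b, which are no members and are described further on.

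**Figure D1:**
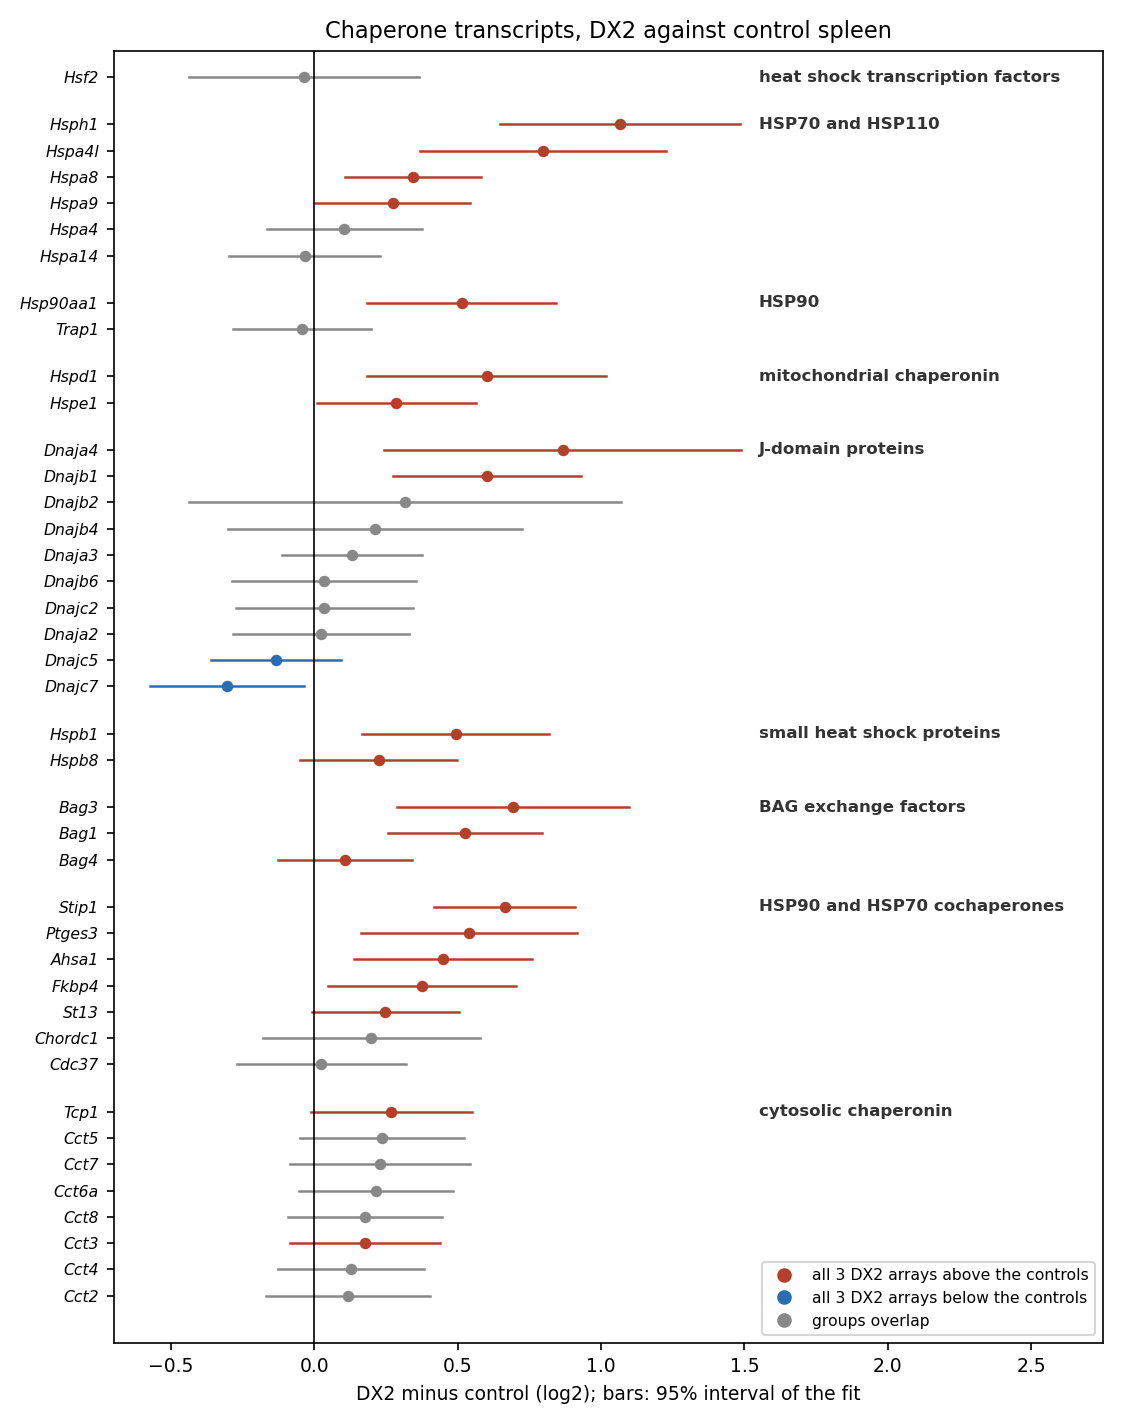
Difference of each of the 41 genes (DX2 minus control, log2, horizontal axis) by role, as a point with the 95% interval of the limma fit. Red marks the 21 genes whose 3 DX2 arrays lie above all controls, blue the 2 whose DX2 arrays lie below, grey overlapping groups, and the points furthest right are Hsph1 (1.07), Dnaja4 (0.87) and Hspa4l (0.80).

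**Figure D2:**
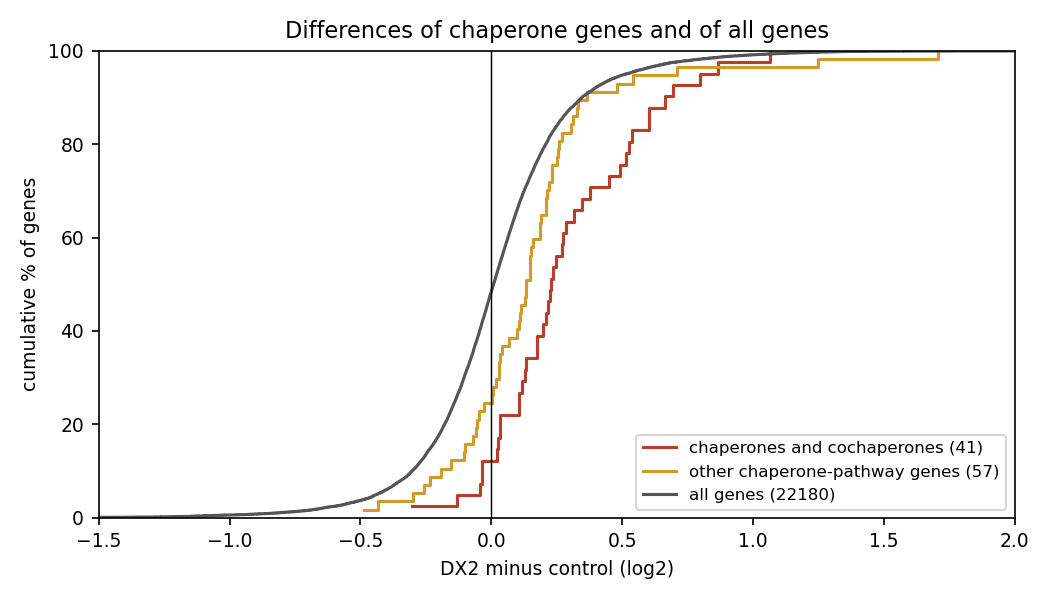
Cumulative percentage of genes (vertical axis) at or below a given difference (DX2 minus control, log2, horizontal axis) for the 41 chaperones and cochaperones, 57 other genes of the same pathways and all 22180 genes. The medians are 0.23, 0.13 and 0.01, and the axis is drawn from -1.5 to 2, outside which some of all genes lie.

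The mean over the members was higher on each DX2 array than on any control. Averaged over the 41 genes, the log2 value was 8.01, 7.94 and 7.88 in DX2 spleens, against 7.59, 7.77 and 7.60 in control spleens. DX2 1 lay above all controls for 28 of the 41 members, where 29.5% of all genes did so. DX2 2 did for 33 members and 33.9% of all genes, and DX2 3 for 24 members and 31.1% of all genes. Control 2 was the highest control for 35 of the 41 (85.4%), where it was so for 33.8% of all genes. Without control 2, the groups were separate upward for 29 members, where 16.3% of all genes then were, and the median difference was 0.28. All 3 DX2 arrays lay above control 3, the 1 male control, for 30 of 41 genes (73.2%) and for 28.9% of all genes. With a sex term in the fit 35 of 41 differences were positive, their median was 0.28 and none passed (smallest adjusted p 0.262, for Bag3).

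Promoter sequence was looked at because many members differed in the same direction and heat shock factors bind a known repeat. The windows were RefSeq promoters of assembly GRCm38.p6, from 250 bases before to 50 after each gene start, and 35 of the 45 symbols had at least 1. The triple repeat was searched as GAANNTTCNNGAA and as its reverse complement TTCNNGAANNTTC, and the double repeat as GAANNTTC and TTCNNGAA, each of which reads the same on both strands and is contained in the triple. The triple was found for 5 of the 35 symbols (14.3%), namely Hspd1, Hspe1, Dnajb6, Hsph1 and Chordc1, and for 179 of all 27025 genes with a window (0.662%). A double was found for 17 of the 35 (48.6%) and for 17.0% of all genes, a gene with several windows counting as a match if any of them matched.

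The stretches with the triple are printed first because they carry the full repeat, and those of Hspb1 and Dnaja4 because each holds the double at 2 places. Capitals mark the GAA and TTC units of the repeat, and each stretch reads 5′ to 3′ along its gene.
Hspe1, chr1:55088038-55088097, plus strand, bases -110 to -51: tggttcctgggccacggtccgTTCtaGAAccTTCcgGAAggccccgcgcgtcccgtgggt
Dnajb6, chr5:29735828-29735887, plus strand, bases -70 to -11: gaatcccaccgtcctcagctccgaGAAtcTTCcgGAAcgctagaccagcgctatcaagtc
Hsph1, chr5:149636287-149636316, minus strand, bases 21 to 50: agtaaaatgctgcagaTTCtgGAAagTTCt
Chordc1, chr9:18292259-18292288, plus strand, bases -8 to 22: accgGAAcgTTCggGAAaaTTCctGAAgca
Hspb1, chr5:135887786-135887845, plus strand, bases -133 to -74: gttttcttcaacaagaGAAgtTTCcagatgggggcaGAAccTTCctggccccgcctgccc
Dnaja4, chr9:54699462-54699521, plus strand, bases -97 to -38: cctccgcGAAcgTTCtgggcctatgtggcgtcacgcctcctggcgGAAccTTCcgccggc

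The Hspe1 stretch lies in the window of Hspd1 as well, read on the minus strand from -165 to -106, since the pair is transcribed in opposite directions from a shared region. Members with the repeat spanned much of the range of differences. The 5 genes with the triple had differences of 1.07 (Hsph1), 0.60 (Hspd1), 0.29 (Hspe1), 0.20 (Chordc1) and 0.034 (Dnajb6). Groups did not overlap in the upward direction for 8 of the 15 measured members with a double and for 8 of the 18 without, and the medians were 0.24 and 0.20. Over all genes 10.7% were separate upward. Hspa4l, Stip1, Dnajb1 and Bag1, which are among the members with the largest differences, had no match to these letters in their windows, and nothing about factor binding was measured.

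Hsf2 was the measured one of the pair of heat shock factors named above, and 2 further factors, Hsf4 and Hsf5, differed by -0.11 (SE 0.11) and -0.054 (SE 0.23) with overlapping groups. Hsf2, which acts with Hsf1 and is itself regulated in development, read 5.81, 6.16 and 5.51 in DX2 spleens, against 5.84, 5.79 and 5.96 in control spleens. The groups overlapped, and the DX2 arrays spread more widely (SD 0.33) than the controls (SD 0.09). The difference of -0.036 (SE 0.17, adjusted p 0.944 in limma) took the other sign when either DX2 3 or control 3 was left out and when arrays were centred or quantile normalized again.

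Within the HSP70 and HSP110 family the differences of Hsph1 and Hspa4l were the largest. Hsph1 (HSP105), an HSP110 protein that releases nucleotide from HSP70, read 8.68, 8.44 and 8.04 in DX2 spleens, against 7.37, 7.46 and 7.14 in control spleens. All DX2 values lay at least 0.59 above the highest control. The difference was 1.07 (SE 0.18, 2.09-fold, adjusted p 0.0683 in limma). Hspa4l, a close relative first described in testis, read 8.06, 7.34 and 7.77 in DX2 spleens, against 7.02, 6.91 and 6.84 in control spleens, and DX2 2 was the lowest of the 3. Its difference was 0.80 (SE 0.18, 1.74-fold, adjusted p 0.110), and without DX2 2 it was 0.99 and passed (adjusted p 0.0395). Without DX2 1 it was 0.63 (adjusted p 0.148), and with the sex term 0.88 (adjusted p 0.492). Their relative Hspa4 had a difference of 0.10 (95% interval -0.16 to 0.37) and overlapping groups, which was 0.041 without control 1 and 0.044 without DX2 2.

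The constitutive HSP70 genes Hspa8 and Hspa9 had smaller differences with separate groups. Hspa8, the constitutive cytosolic HSP70, read 11.65, 11.66 and 11.55 in DX2 spleens, against 11.29, 11.33 and 11.20 in control spleens. The groups were separate with little spread in either, and the difference was 0.35 (SE 0.10, 1.27-fold, adjusted p 0.170). Hspa8 has many processed copies in the genome, and 3 further probe sets were annotated to it. They differed by 0.87, without overlap, and by 0.60 and 0.61, with overlap. A probe set shared with the small nucleolar RNA Snord14e differed by -0.38, with overlap. None of these passed when all 41345 probe sets were tested together. Hspa9, the mitochondrial HSP70 mortalin, read 9.83, 9.87 and 9.72 in DX2 spleens, against 9.43, 9.69 and 9.48 in control spleens. Control 2 came within 0.03 of the lowest DX2 value, and the difference was 0.27 (SE 0.12, adjusted p 0.309). Hspa14, an atypical HSP70 that works at the ribosome, differed by -0.034 (SE 0.11) with overlapping groups.

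Of the 2 HSP90 genes measured, the cytosolic Hsp90aa1 was separated upward and the mitochondrial Trap1 was not, a contrast between genes that was not tested. The further HSP90 gene Hsp90ab1 was not analysed here. Hsp90aa1, the stress-responsive cytosolic HSP90, read 8.70, 8.39 and 8.40 in DX2 spleens, against 7.96, 8.16 and 7.81 in control spleens. Every DX2 array exceeded every control, DX2 1 by the most, and the difference was 0.51 (SE 0.14, 1.43-fold, adjusted p 0.150 in limma). Trap1, the mitochondrial HSP90, read 7.67, 7.61 and 7.53 in DX2 spleens, against 7.58, 7.73 and 7.63 in control spleens. Its groups overlapped and its difference was -0.044 (95% interval -0.29 to 0.20).

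Both parts of the mitochondrial chaperonin were higher in all DX2 arrays. Hspd1, the HSP60 barrel, read 9.06, 8.66 and 8.56 in DX2 spleens, against 7.94, 8.42 and 8.14 in control spleens. Hspe1, the HSP10 lid that closes it, read 7.96, 7.87 and 7.89 in DX2 spleens, against 7.52, 7.81 and 7.53 in control spleens. For both genes DX2 1 was the highest array and control 1 the lowest, and control 2 came closest to the DX2 values. The differences were 0.60 (SE 0.18, 1.52-fold, adjusted p 0.174) for Hspd1 and 0.29 (SE 0.12, 1.22-fold, adjusted p 0.298) for Hspe1. Counting Hspa9, Trap1 and the J-domain protein Dnaja3 with them, 3 of the 5 mitochondrial members were separate upward, where 10.7% of all genes were. Control 2 was the highest control for all 5, where it was so for 33.8% of all genes.

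J-domain genes went in both directions. Of 10 measured, 8 had a positive difference, of which Dnaja2, Dnajb6 and Dnajc2 turned negative with array weights, and the median was 0.08. Groups were separate upward for 2 genes, where 10.7% of all genes were, and downward for 2, where 11.2% of all genes were. Dnaja4, a type I J-domain protein, read 7.60, 6.50 and 7.04 in DX2 spleens, against 5.96, 6.20 and 6.38 in control spleens. DX2 2 lay only 0.12 above the highest control, the difference was 0.87 (SE 0.27, 1.82-fold, adjusted p 0.187), and without DX2 2 it was 1.14 and passed (adjusted p 0.0494). Without DX2 1 it was 0.59 (adjusted p 0.238), and with the sex term 0.67 (adjusted p 0.682). Dnajb1, the main stress-induced HSP40 partner of HSP70, read 7.30, 7.47 and 7.11 in DX2 spleens, against 6.57, 6.88 and 6.63 in control spleens. All 3 DX2 values were higher, and the difference was 0.60 (SE 0.14, 1.52-fold, adjusted p 0.112).

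Other J-domain genes differed little or in the opposite direction. Dnajb2, which is best known from neurons, read 6.72, 5.38 and 6.34 in DX2 spleens, against 5.66, 6.11 and 5.71 in control spleens. DX2 2 was the lowest of all arrays for it, and its difference of 0.32 (SE 0.32) was 0.70 without that array and 0.029 without DX2 1. Dnajc7, a cochaperone with tetratricopeptide repeats that binds both HSP70 and HSP90, read 8.73, 8.90 and 8.63 in DX2 spleens, against 9.09, 9.10 and 8.97 in control spleens. All DX2 values were below the controls, by a difference of -0.30 (SE 0.11, 1.23-fold lower in DX2, adjusted p 0.258), and a probe set it shares with Nkiras2 differed by -0.02. Dnajc5, the vesicle protein CSP-alpha, was also below in all arrays (-0.13, SE 0.10). Both separations were lost when arrays were centred on their medians, where neither sign turned. The remaining members of the group, which share the J domain that activates HSP70, differed by 0.21 (Dnajb4), 0.13 (Dnaja3), 0.034 (Dnajb6 and Dnajc2) and 0.024 (Dnaja2), all with overlapping groups. Other probe sets of Dnaja3 differed by 0.061 and 0.042, also with overlap. Dnajb4 was 0.046 without DX2 3 and 0.46 without DX2 2, with 0.13 without DX2 1 and 0.12 without control 3.

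Of the small heat shock proteins, which hold unfolded clients without using ATP, Hspb1 and Hspb8 had separate groups. Hspb1 (HSP25 in mouse) read 5.12, 5.43 and 5.58 in DX2 spleens, against 4.81, 4.96 and 4.89 in control spleens. Hspb8, the partner of Bag3 in selective autophagy, read 5.10, 5.36 and 5.14 in DX2 spleens, against 5.04, 4.88 and 5.0 in control spleens. Neither pair of groups overlapped, with gaps of 0.16 and 0.06, where 10.7% of all genes were separate upward. Both genes had means below the median gene (5.13 and 5.09, against 5.45). The differences were 0.49 (SE 0.14, 1.41-fold, adjusted p 0.158) and 0.22 (SE 0.12, 1.17-fold, adjusted p 0.405), a second probe set of Hspb1 differed by 0.083 with overlap, and Hspb8 differed by 0.14 without DX2 2. Of 4 further small heat shock genes measured, Cryab, Hspb3, Hspb6 and Hspb7, all had overlapping groups, with differences from -0.23 for Cryab to 0.27 for Hspb6. Of 6 smooth muscle markers 2 had a positive difference, and 1 (16.7%) was separate upward, where 10.7% of all genes were. The summed linear signal of the 6 was 670 to 902 in DX2 and 745 to 929 in control spleens (the part of smooth muscle in these values was not tested).

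All 3 BAG genes, whose proteins free clients from HSP70, were higher on every DX2 array in the probe sets used. Over all genes 10.7% were separate upward. Bag1, which links HSP70 to the proteasome, read 7.77, 7.59 and 7.62 in DX2 spleens, against 7.02, 7.27 and 7.11 in control spleens. Bag3, which links it to autophagy, read 6.85, 6.99 and 6.93 in DX2 spleens, against 6.27, 6.54 and 5.87 in control spleens. Bag4 read 6.77, 6.88 and 6.77 in DX2 spleens, against 6.64, 6.73 and 6.73 in control spleens, and its other probe set differed by 0.20 (SE 0.17) with overlap. Bag1 and Bag3 left a gap of 0.32 and 0.31 between the groups and Bag4 one of 0.04, and for Bag3 the controls varied (SD 0.34) more than the DX2 spleens (SD 0.07). The differences were 0.53 (SE 0.12, 1.44-fold, adjusted p 0.106) for Bag1, 0.69 (SE 0.17, 1.62-fold, adjusted p 0.127) for Bag3 and 0.11 (SE 0.10, adjusted p 0.660) for Bag4, which was 0.068 without DX2 2. With the sex term the difference of Bag3 was 1.05 (adjusted p 0.262).

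Among the cochaperones of HSP90 and HSP70, Stip1 had the smallest adjusted p. Stip1 (HOP), the adaptor that passes clients between HSP70 and HSP90, read 9.0, 9.0 and 8.82 in DX2 spleens, against 8.26, 8.32 and 8.24 in control spleens. The gap between the groups was 0.49 and the controls had an SD of 0.04. Its difference of 0.66 (SE 0.11, 1.58-fold) had an adjusted p of 0.0638 in limma, the smallest of all members. It passed when the dimmest 40% of genes were left out (adjusted p 0.0449) and with array weights (adjusted p 0.0351), and its adjusted p was as high as 0.393 with the sex term.

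Further HSP90 partners were higher by smaller amounts. Ahsa1, which stimulates the HSP90 ATPase, read 8.15, 8.21 and 8.09 in DX2 spleens, against 7.65, 7.94 and 7.51 in control spleens. Fkbp4, an immunophilin of steroid receptor complexes, read 8.09, 7.85 and 7.70 in DX2 spleens, against 7.44, 7.68 and 7.40 in control spleens. DX2 values were above the controls in both, for Fkbp4 by a margin of 0.02, and the differences were 0.45 (SE 0.13, adjusted p 0.174) and 0.38 (SE 0.14, adjusted p 0.255). Ptges3, the p23 protein that stabilises closed HSP90, read 4.94, 4.37 and 4.65 in DX2 spleens, against 4.18, 4.19 and 3.97 in control spleens. Its groups were separate and its difference was 0.54 (SE 0.16, adjusted p 0.178). The mean of this probe set, 4.38, was the lowest of all members and below the median gene (5.45). Ptges3 was the member left out with the 40% dimmest genes. The 2 probe sets shared with its pseudogene Ptges3-ps differed by 0.45, without overlap, and by 0.32, with overlap.

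The remaining cochaperones of this group were closer between the groups. St13 (HIP), which stabilises client-bound HSP70, differed by 0.25 (SE 0.11) without overlap, and Chordc1, a stress-responsive HSP90 partner, by 0.20 (SE 0.16) with overlap. The value of Chordc1 was 0.087 without DX2 1, 0.11 without control 3 and 0.35 without DX2 3. Cdc37, which loads kinases onto HSP90, differed by 0.024 (SE 0.13), a value that turned negative in some settings. All 7 measured cochaperones of this group had a positive difference, 5 of them without overlap, where 10.7% of all genes were separate upward. Stub1 (CHIP), the ubiquitin ligase that marks chaperone clients, shares its probe set with Jmjd8, and that set differed by 0.15 (SE 0.11) without overlap. The set that covers Dnaja1, the HSP40 partner of HSP70, covers Mir207 too and differed by 0.27 (SE 0.18) with overlap.

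**Figure D3:**
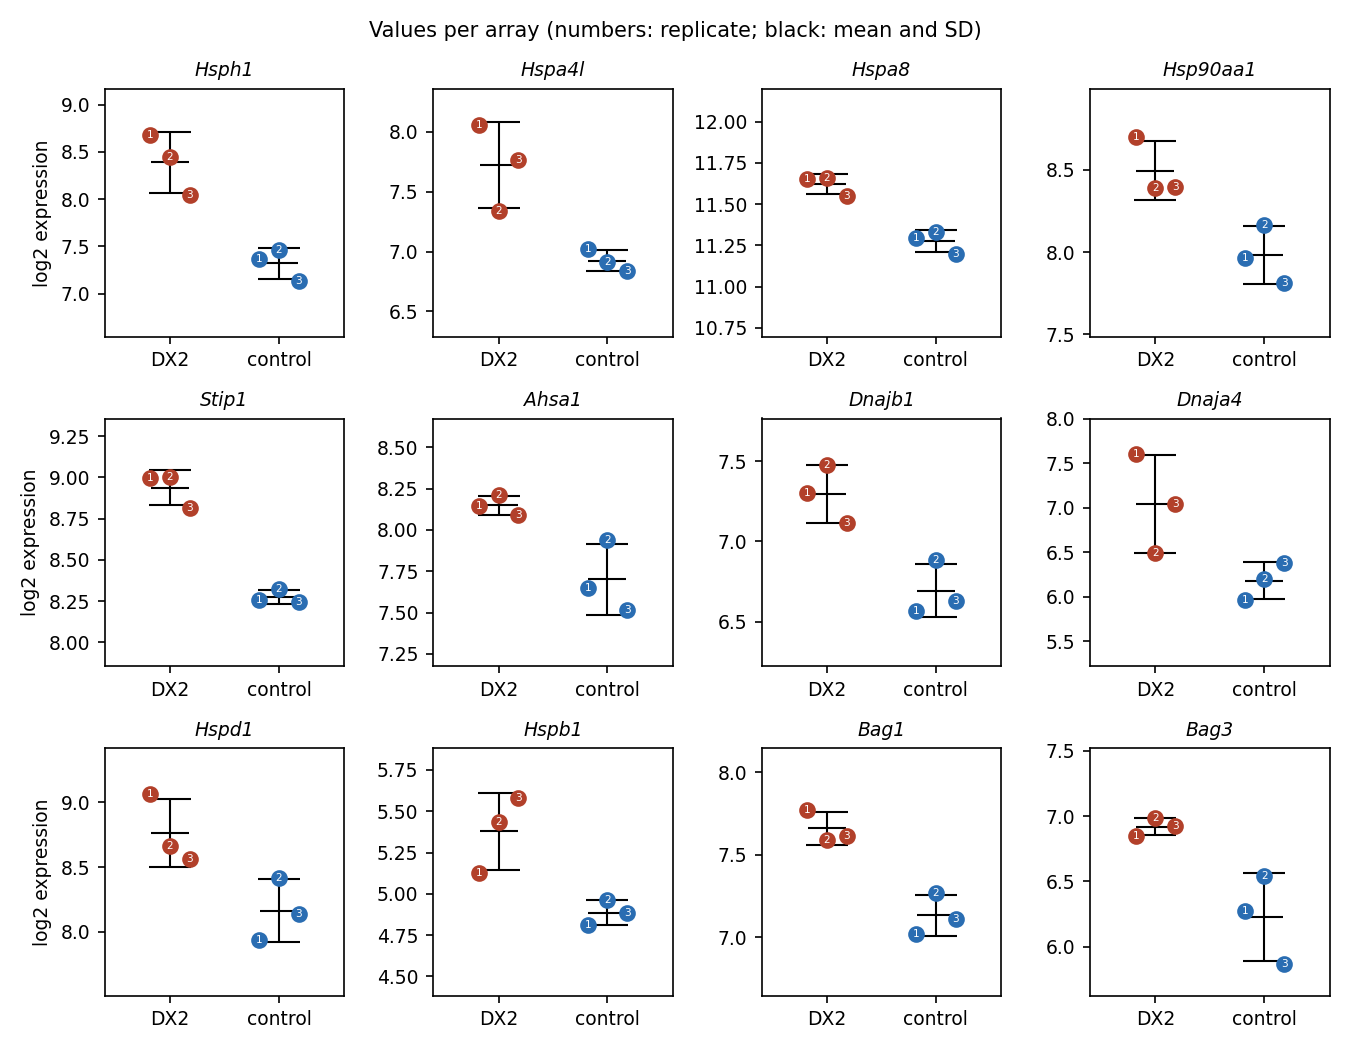
Log2 expression (vertical axis, each panel with its own range) of 12 members in the 3 DX2 spleens (red, left) and 3 control spleens (blue, right), with replicate numbers in the points and the mean and SD in black. All 12 are among the 21 members separate upward, so in each panel the DX2 points lie above the controls. The gap is 0.59 for Hsph1, 0.49 for Stip1 and 0.12 for Dnaja4.

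The cytosolic chaperonin differed by a small amount in each of its 8 subunits. Tcp1 and the Cct genes encode a double ring in which every subunit occurs, and all 8 had a positive difference, from 0.12 for Cct2 to 0.27 for Tcp1 (median 0.20, adjusted p between 0.333 and 0.695). All stayed positive when 1 array was left out, but Cct2 was 0.029 without DX2 2 and 0.19 without DX2 1, Cct3 was 0.11 without control 1, and Cct7 was 0.13 without control 1 and 0.35 without control 2. Tcp1 read 9.60, 9.72 and 9.73 in DX2 spleens, against 9.26, 9.58 and 9.41 in control spleens. Cct5 read 8.87, 9.02 and 8.78 in DX2 spleens, against 8.53, 8.80 and 8.62 in control spleens. Only Tcp1 and Cct3 of the 8 had separate groups, each by 0.02, where 10.7% of all genes were separate upward.

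The subunits ranked the control arrays alike. Control 1 was the lowest array and control 2 the highest control for all 8. Cct7 showed the control range most plainly, at 8.36, 8.34 and 8.37 in DX2 spleens, against 7.93, 8.37 and 8.08 in control spleens. Cct6a read 9.07, 9.14 and 8.94 in DX2 spleens, against 8.72, 8.95 and 8.83 in control spleens, and its second probe set differed by 0.62 (SE 0.25, overlapping) where the first differed by 0.21 (SE 0.11). The second set of Tcp1 differed by 0.15 (SE 0.47). Mean values of the 8 were 9.14, 9.22 and 9.09 in DX2 spleens, against 8.84, 9.10 and 8.94 in control spleens, so control 2 exceeded DX2 3.

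**Figure D4:**
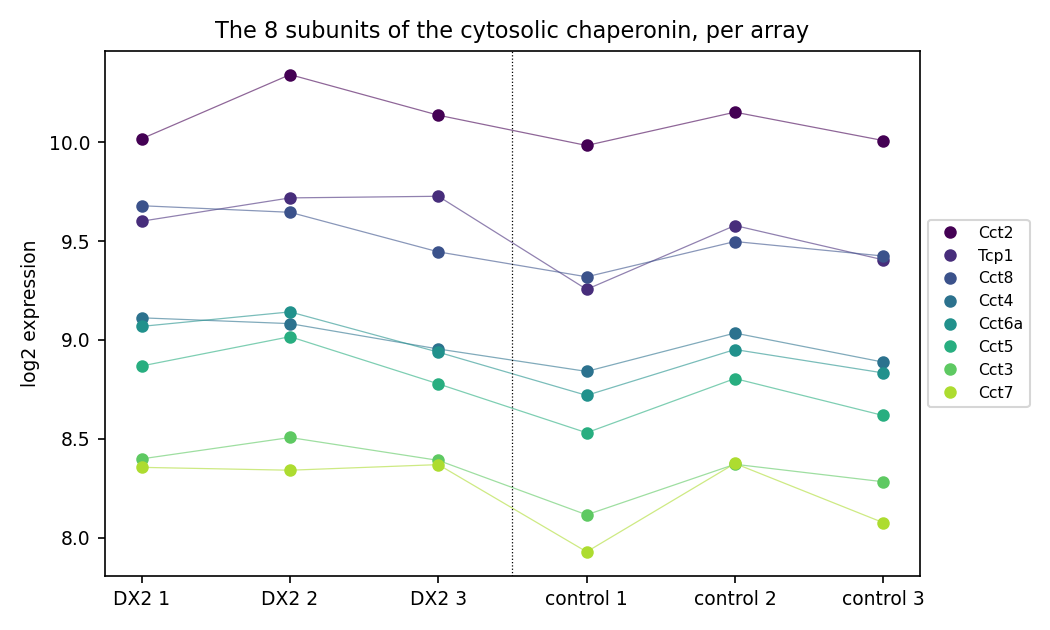
Log2 expression (vertical axis) of the 8 chaperonin subunits on the 3 DX2 arrays (left of the dotted line) and 3 control arrays (right), with thin lines joining the values of a subunit as a guide and no order among arrays of a group. Control 1 is lowest for all 8 subunits, and control 2 lies near the DX2 values.

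Other genes of the same machinery had a smaller median difference. Of 57 measured genes on lists of further heat shock factor, HSP70, small heat shock, J-domain, cochaperone, prefoldin and mitochondrial protease genes, 43 had a positive difference, the median was 0.13 and 0 passed in limma. Groups were separate upward for 14 (24.6%), where 10.7% of all genes were, and downward for 4, where 11.2% of all genes were. The stress-inducible HSP70 genes had the largest differences and the widest spread. Hspa1b read 8.08, 6.60 and 6.0 in DX2 spleens, against 5.04, 5.38 and 5.15 in control spleens. Hspa1a read 7.44, 5.79 and 4.78 in DX2 spleens, against 5.16, 4.99 and 4.12 in control spleens. DX2 1 was by far the highest for both, and Hspa1a overlapped between the groups. The differences were 1.71 (SE 0.47, adjusted p 0.150) for Hspa1b and 1.25 (SE 0.62, adjusted p 0.385) for Hspa1a. Without DX2 1 they were 1.11 and 0.53, and because the genes are near-identical their probe sets are uncertain.

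Among the remaining genes of these lists, cochaperones went both ways. Fkbp5 had the largest difference of the further cochaperones, 0.71 (SE 0.27), with overlapping groups. Bag2, an inhibitor of Stub1, differed by 0.54 (SE 0.12) and the prefoldin subunit Pfdn6 by 0.48 (SE 0.14), both separate upward. Cdc37l1, a relative of Cdc37, differed by -0.48 (SE 0.12) and the mitochondrial exchange factor Grpel2 by -0.43 (SE 0.13), both separate downward. Of the mitochondrial helpers and proteases 7 of 11 had a positive difference (median 0.11), and 10 of 11 further J-domain genes did (median 0.16). Chaperones of the endoplasmic reticulum, which answer to a different stress pathway, had a positive difference in 13 of 13, with a median of 0.33. Groups were separate upward for 5 of the 13 (38.5%), where 10.7% of all genes were. These chaperones were highest in DX2 2 (12 of 13), where the HSP70 relative Hspa5 read 8.88, 8.94 and 8.54 in DX2 spleens, against 8.48, 8.62 and 8.25 in control spleens.

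Several marker lists also differed between the groups. Of 9 erythroid markers all had a positive difference, and their summed linear signal was 1953 to 9943 in DX2 and 903 to 3502 in control spleens, with DX2 2 within the control range. Of 13 cell cycle genes all were positive, at 5749 to 9620 in DX2 and 2798 to 5213 in control spleens, and control 1 was the lowest array for 12 of them. Of 9 B cell markers 0 were positive, at 3517 to 6919 in DX2 and 11099 to 14633 in control spleens. Of 10 red pulp macrophage markers 8 were positive, at 7845 to 9575 in DX2 and 5304 to 6125 in control spleens. Slc40a1 (-0.33) and Hmox1 (-0.032) were negative, and 6 of the 10 were separate upward, where 10.7% of all genes were. The summed signal gives bright genes such as C1qb (difference 1.34) more weight. C1qa and C1qc, also in the sum, differed by 0.99 and 1.13, and the ranges were not computed without these C1q genes. Of 9 immediate early genes all were positive, at 994 to 1167 in DX2 and 694 to 792 in control spleens. No value of the deposited table is 0. That does not show detection of these markers, whose height above background is not known.

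The spleens of the DX2 group were not alike in several lists. The mean erythroid values were 9.74, 7.52 and 9.51 in DX2 spleens, against 6.40, 8.24 and 8.14 in control spleens, so DX2 1 was highest and DX2 2 lowest of the DX2 group. The mean of 8 neutrophil markers, all with a positive difference, was 9.57, 7.62 and 7.64 in DX2 spleens, against 7.24, 7.67 and 8.22 in control spleens. That of 5 megakaryocyte and platelet markers, all positive too, was 9.58, 7.39 and 7.87 in DX2 spleens, against 7.33, 8.05 and 7.97 in control spleens. DX2 1 thus lay above all controls in both and the other DX2 arrays did not. The mean of 7 T cell markers, 0 of them positive, was 6.46, 8.10 and 7.79 in DX2 spleens, against 7.97, 7.61 and 7.85 in control spleens. DX2 1 was the highest DX2 array for 15 members (36.6%), Hsph1, Hspd1 and Dnaja4 among them, and for 32.1% of all genes. The same order of DX2 1, DX2 3 and DX2 2 was seen in 8 of the 41 members (19.5%), Hspa4l, Dnaja4 and Dnajb2 among them, and in 19% of all genes. DX2 2 was instead the highest DX2 array for 22 members (53.7%), Dnajb1, Bag3 and Ahsa1 among them, and for 40.2% of all genes. The part of these cell types, of the cell cycle, of sex and of the immediate early genes in the chaperone values was not tested.

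**Figure D5:**
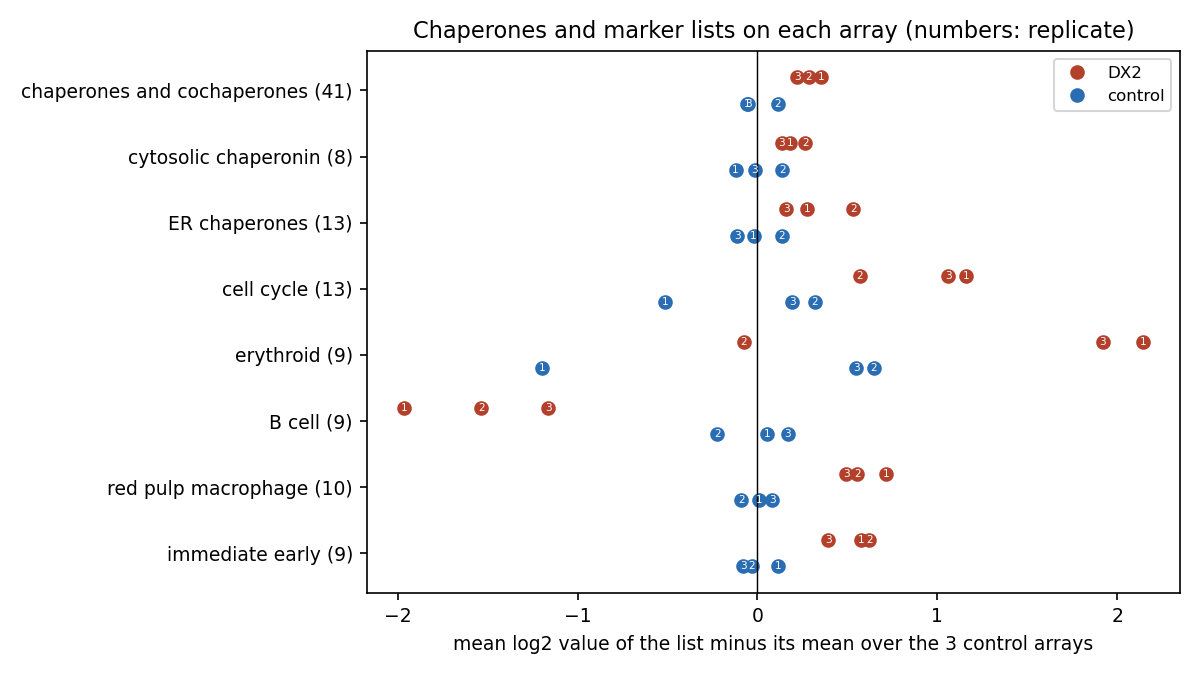
Mean log2 value of each list on each array minus its mean over the 3 controls (horizontal axis), for DX2 (red, upper row) and control spleens (blue, lower row), with replicate numbers in the points and the number of measured genes in brackets. The chaperone mean lies higher on all 3 DX2 arrays than on any control, while in the erythroid list DX2 2 lies among the controls.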

How the data were processed

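Expression was measured with 1 Affymetrix array for each of 6 spleens, 3 DX2 and 3 control, grouped and numbered by the sample titles. The authors deposited 1 table of log2 values (41345 probe sets, 0 missing) made with RMA, per the submitters' processing notes, whose version no source used here gives. The values ran between 0.771 and 13.3, from which a log2 scale was taken. RMA normalizes arrays to one another and compresses large differences. The platform annotation gave 23521 probe sets 1 gene symbol, 1814 several and 16010 none. Each of 22180 genes was represented by its brightest probe set. Differences were fitted with lmFit and eBayes of limma 3.58.1 (R 4.3.3) with no covariate and no filter, and calls used a threshold of 0.05 after Benjamini-Hochberg adjustment. The fit was tested on simulated data. Precision is limited by the number of arrays (median SE over genes 0.14). The labels call the samples biological replicates. Motifs were searched with Python 3.11.15. The members, lists and tests were chosen with earlier results of these data known. In larger role groups the 4 genes with the largest absolute difference are given per array, and at most 4 genes are named from any other list, besides Hspa1a and Hspa1b. The alternatives were leaving out each array, a block for the replicate number, a sex term, a filter on dim genes, other variance priors, array weights, other scalings, other probe sets, a looser threshold and, added after seeing the data, a test of all probe sets together.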

Additional observations from a re-analysis of the deposited data

How the results depend on the processing

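Under 16 other settings between 32 and 39 of the chaperone differences were positive and their median was 0.21 to 0.32, the highest when arrays were centred on their medians, which moved the median of all genes to 0.10 and left 0 members separate downward. The number separate upward was 17 to 29, lowest after the second quantile normalization (15.7% of all genes) and highest without control 2 (16.3%), and 27 with centred arrays (19.1%). Members past the threshold were 0 to 2 when 1 array was left out (2 without DX2 2, Hspa4l and Dnaja4), 1 without the 40% dimmest genes (Stip1), 3 with array weights (Stip1, Hspa4l and Hsph1), 2 at an adjusted p of 0.1, and 0 when all 41345 probe sets were tested together. Genes past the threshold, 70 of 22180, numbered 1 to 370 without 1 array (370 without DX2 2, 8 without DX2 1, 5 without control 3 and 1 without any of the others), 2 with a sex term, 125 without the dimmest genes, 547 with array weights, 2 with centred arrays and 394 at an adjusted p of 0.1. Deviations from the group means correlated at -0.32, -0.14 and 0.07 between spleens of the same replicate number. With so few arrays this cannot show whether spleens were paired. With the replicate block 1 gene and 0 members passed. The sign turned in 7 members, all within 0.05 of 0. Leaving out 1 array gave -0.20 to 0.12 for Hsf2, -0.087 to 0.022 for Hspa14, -0.092 to 0.082 for Dnaja2, -0.078 to 0.15 for Dnajb6, -0.078 to 0.095 for Dnajc2 and -0.081 to 0.085 for Cdc37. Array weights gave -0.029 for Dnaja2, -0.080 for Dnajb6, -0.023 for Dnajc2 and -0.022 for Cdc37, and the sex term gave -0.066 for Cdc37. Centred arrays gave 0.055 for Hsf2, 0.058 for Hspa14 and 0.047 for Trap1, and a second quantile normalization 0.063 for Hsf2. The causes were not tested. The sex term rests on 1 male control.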
